A study of Rattus norvegicus with 10 samples.

Results

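The genes described here encode the hyaluronan-binding protein Tnfaip6 and 9 partners that build or bind the hyaluronan matrix: the synthases Has1, Has2 and Has3, the receptor Cd44, the link protein Hapln1, and the proteoglycans Vcan, Acan, Bcan and Ncan. All probe sets whose platform annotation gave 1 of these symbols and no other were taken. There were 18, for 8 of the 10 genes, among 31042 probe sets and 14217 named genes on the array. No probe set was annotated with Has1 or Has3 alone, and both genes were not analysed here. Tnfaip6 was picked because it differed between the groups in these same arrays, so its values are given as a description with no test. The other 9 genes were picked by role, with earlier results of these data known.

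Hyaluronan is a long unsulfated sugar chain that synthases in the cell membrane extrude into the extracellular space. In brain it forms the backbone to which the chondroitin sulfate proteoglycans of the lectican family (versican, aggrecan, brevican and neurocan) attach, held by link proteins, both in the diffuse matrix and in the perineuronal nets around some neurons. Tnfaip6, also called TSG-6, is a secreted protein induced by inflammatory cytokines in many cell types. It binds hyaluronan through a link module and transfers the heavy chains of inter-alpha-inhibitor onto it, which cross-links the chains, as in the matrix around the ovulating oocyte.

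RNA came from the hypothalamic paraventricular nucleus of male Sprague Dawley rats aged 10 to 12 weeks. There were 5 pools from rats dehydrated for 3 days and 5 pools from control rats, each pool holding 5 animals and hybridised to 1 Affymetrix Rat Genome 230 2.0 array. The pools came from different animals, per the design text, and the sources used here do not give how water was withheld. The design text names the supraoptic nucleus at 1 point, whereas all sample labels name the paraventricular nucleus, which was followed.

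Neuron markers of the labelled nucleus were present, with some at low signal. Crh, made by parvocellular neurons, had a mean signal of 320 in dehydrated and 282 in control pools, and Trh, another parvocellular hormone gene, 651 and 615. The magnocellular hormone genes Avp and Oxt had 4957 and 4861 in dehydrated pools, against 3531 and 4090 in control pools, and Sim1, a transcription factor of this lineage, 79.2 and 62.1. The further markers Otp and Pou3f2 had low signals, 14.2 and 0.72 in dehydrated and 5.66 and 0.62 in control pools. Median signals of the arrays ran from 36.4 to 39.1. Among them, control replicate 5 lay away from the rest on the leading principal component, at 37.2 against -14.4 to 3.69, and the values of Tnfaip6 and of the tested members are given with and without it. In RNA from whole tissue, fewer cells of a type and less RNA per cell cannot be told apart.

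Tnfaip6 signal was higher in every dehydrated pool than in any control pool on both of its probe sets, and about 6 times as high on the brighter one. Of all 31042 probe sets, 1.54% had every dehydrated pool above every control pool. On 1371194_at the signal was 125.6, 135.8, 155.1, 123.6 and 119.1 in dehydrated pools, against 22.1, 17.2, 23.9, 20.1 and 27.2 in control pools. The lowest dehydrated pool was above 4 times the highest control pool, and dehydrated replicate 3 was the highest of all. The means were 132 ± 14.4 in dehydrated and 22.1 ± 3.78 in control pools (SD, n = 5 each), a ratio of 5.97.

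On the scale of log2(signal + 3.72), where 3.72 is a pseudocount of 0.1 of the typical array median, the difference was 2.40 ± 0.13 (standard error), a fold of 5.27. It ranked 1 of the 18629 probe sets tested, and the next largest difference was 1.84. Those 18629 were the probe sets with a mean signal of at least 24.1 over all arrays. The control mean of Tnfaip6 lay under that value, so the probe set was kept through its dehydrated level. Without control replicate 5 the difference was 2.47.

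The summed signal of 12 marker genes of magnocellular and paraventricular neurons was also higher, at 15503 to 19274 in dehydrated and 13169 to 15576 in control pools (exact permutation p = 0.0159, adjusted 0.0635 over 12 measures). These ranges overlap narrowly, and the median of the markers' log2 signals was higher by 0.46 (exact permutation p = 0.0079, not adjusted). Of the 10 tested markers all were positive, 3 rose and 7 did not pass (limma). Pdyn, which encodes prodynorphin, had 740 ± 62.4 in dehydrated and 423 ± 69.3 in control pools (SD, n = 5 each), higher by 0.81 on the log2 scale (limma, adjusted p = 0.000572). Vgf, a neuropeptide precursor gene, rose by 0.62 on the log2 scale (adjusted p = 6.21e-05) and Creb3l1, a transcription factor gene, by 0.80 (adjusted p = 0.0159, but 0.0535 without dehydrated replicate 3). The second Pdyn probe set, with a mean signal below the filter, differed by -0.03. None of the markers was at 0 on any array, but Otp and Pou3f2 had mean signals below the filter. The part of the markers in the Tnfaip6 values was not tested.

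A second probe set, 1371193_at, was much dimmer but separated the same pools. Its signal was 12.9, 18.2, 8.1, 10.1 and 7.4 in dehydrated pools, against 6.6, 1.1, 0.3, 0.3 and 2.2 in control pools. No pool of one group entered the range of the other, although the margin between dehydrated replicate 5 and control replicate 1 was small. The means were 11.3 ± 4.39 in dehydrated and 2.10 ± 2.63 in control pools (SD, n = 5 each), and 4 of the 5 control signals were at most 2.2, too low for a ratio of means to be read. The log2 difference was 1.42 ± 0.29, or 1.45 without control replicate 5, and at such low signals its size depends on the pseudocount. Within groups the probe sets did not order the pools alike: the correlation of their deviations from the group means was 0.14 over 10 pools.

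**Figure D1:**
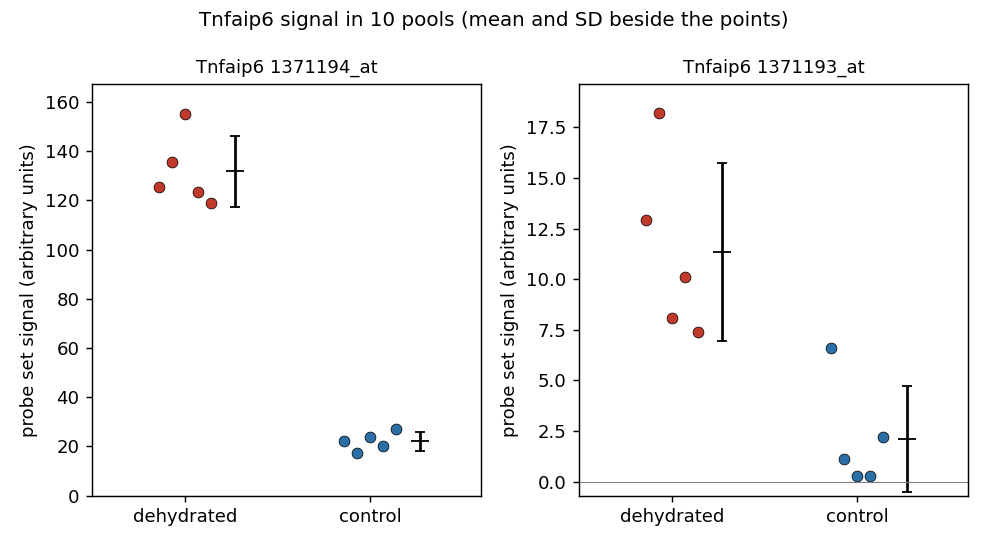
Signal of the 2 Tnfaip6 probe sets in each pool, in arbitrary units, with the mean and SD beside the points of dehydrated (red) and control (blue) pools (n = 5 each). Dehydrated pools lie from 119.1 to 155.1 on 1371194_at and from 7.4 to 18.2 on 1371193_at, above all control pools on each panel.

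Tnfaip6 lies on the plus strand of chromosome 3 of the rat build GRCr8. The 250 bases before its annotated start, chr3:56911148-56911397, are shown because this region precedes the gene with the largest difference. They are from RefSeq, 5′ to 3′, with a match to the binding motif of Fos and Jun dimers (AP-1) in capitals.
Tnfaip6 promoter: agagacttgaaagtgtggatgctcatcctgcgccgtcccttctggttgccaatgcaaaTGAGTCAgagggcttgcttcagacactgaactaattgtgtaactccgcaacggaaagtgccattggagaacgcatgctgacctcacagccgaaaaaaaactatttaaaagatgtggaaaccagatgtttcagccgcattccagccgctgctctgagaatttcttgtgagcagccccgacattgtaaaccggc

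The capitals are TGAGTCA, first base at position -192 from the start. That motif was searched on both strands and stood in 4.05% of the 33469 rat promoter windows of the same length. Among the 9 windows of the 8 members with an entry, Tnfaip6 was the 1 that held it. The cyclic AMP response element, TGACGTCA, stood in 1.59% of all windows and in that of Has1 among members, at -83, but not in that of Tnfaip6. Its shorter core TGACG, which every full element contains, stood in 18.2% of all windows and was absent from the Tnfaip6 window. So were TATAAA, the TATA motif (12.9% of all windows), TTGCGCAA, a C/EBP motif (0.140%), and TGTTCT, the core of the glucocorticoid response element (17.5%). A match describes the letters in the window and nothing about binding.

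None of the other measured matrix genes passed the test. In the fit over all 18629 probe sets with limma, 0 of the 6 tested probe sets of Vcan, Acan and Bcan had an adjusted p under 0.05, against 0.580% of all probe sets. Before adjustment, p was under 0.05 for 3 of the 6 and for 12.7% of all. The median log2 difference of the 6 was 0.02, and that of all probe sets tested was -0.0048. The other 10 probe sets, those of Has2, Cd44, Hapln1 and Ncan and the dimmest of Vcan and Acan, had mean signals under 24.1. The member nearest to that limit from above was Acan 1387355_at, at 26.9, and from below Cd44 1368921_a_at, at 17.9. Without the filter, 0 of all 16 had an adjusted p under 0.05, where 0.206% of 31042 had one, and the smallest was 0.279. Of the 6 tested, 3 had a difference above 0, as did 48.8% of all probe sets tested. Of all 16, 9 had one, as did 52.8% of the 31042.

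Has2, the synthase induced with Tnfaip6 in the ovarian follicle, had a low signal that overlapped between the groups. It was 26.6, 13.8, 19.3, 12.8 and 19.1 in dehydrated pools, against 22.9, 22.9, 10.6, 13.8 and 11.8 in control pools. Pools of both groups lay at either end of the range. The log2 difference was 0.15, with a 95% interval from -0.39 to 0.68 (limma without the filter, adjusted p = 0.875). The mean signal of 17.4 was below the filter, where signals hold background, so this interval does not bound the change in Has2 RNA.

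Cd44, the main cell surface receptor for hyaluronan, did not differ beyond its spread on either probe set. On 1368921_a_at the signal was 6.6, 17.2, 21.5, 17.3 and 23.8 in dehydrated pools, against 9.6, 20.1, 22.7, 19.8 and 20.9 in control pools. Replicate 1 was the lowest of its group in both. The log2 difference was -0.12 (95% interval -0.73 to 0.48) there and 0.12 (-0.56 to 0.79) on 1387952_a_at, both in the fit without the filter.

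Hapln1, the link protein that locks lecticans onto hyaluronan, had 3 probe sets, all below the filter. The brightest, 1370125_at, had 10.9, 11.5, 15.6, 19.5 and 10 in dehydrated pools, against 10.1, 13.1, 8.5, 6.1 and 17.1 in control pools. The ranges overlapped widely, and the log2 difference was 0.25 (95% interval -0.28 to 0.78, fit without the filter). The other probe sets, 1384541_at and 1386310_at, differed by -0.23 and -0.02, with signals of at most 5.4 and 1.1.

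**Figure D2:**
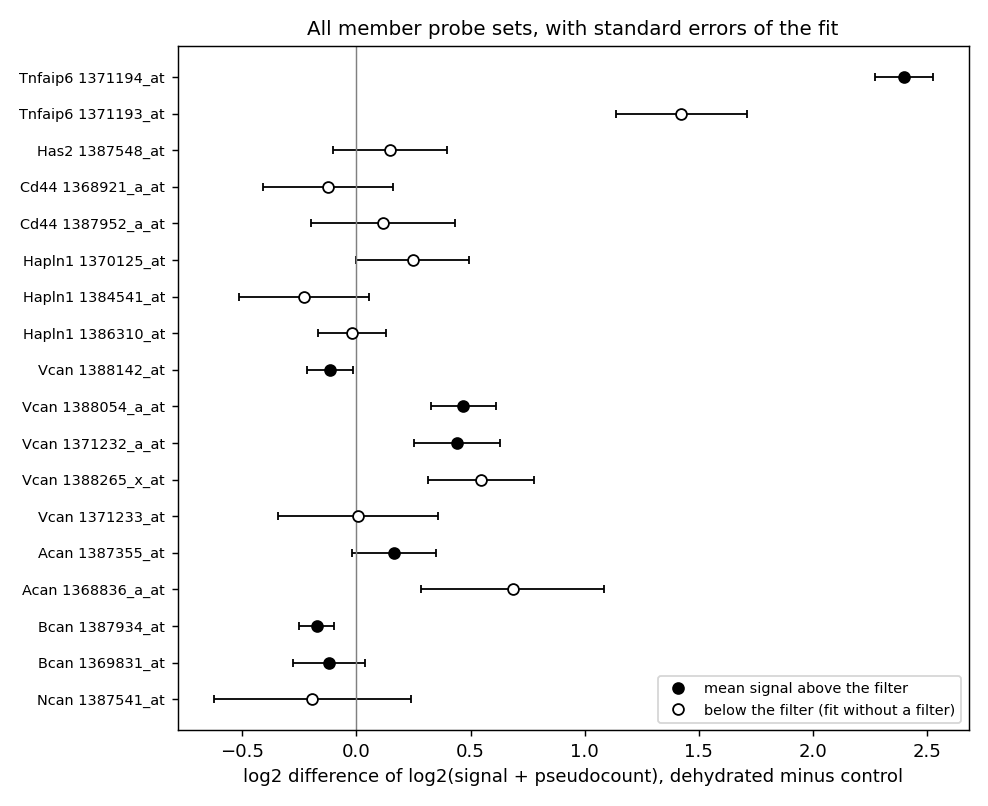
Log2 difference of each of the 18 member probe sets, dehydrated minus control, with bars of 1 standard error. Filled points had a mean signal above the filter and open points did not. The Tnfaip6 points stand at 2.40 and 1.42, and those of the other genes lie between -0.23 and 0.68.

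Versican, encoded by Vcan, is the lectican of broad tissue distribution, made in several splice forms that differ in the chains they carry. Its 5 probe sets did not move together. On 1388054_a_at the signal was 60, 44.1, 54.8, 41.8 and 46.3 in dehydrated pools, against 26.1, 37.9, 40.1, 34.4 and 34.8 in control pools. All dehydrated pools were above all control pools, by a narrow margin, which was the case for 1 of the 16 probe sets outside Tnfaip6 (groups did not overlap in either direction for 2.52% of all 31042 probe sets and for 3.36% of those tested). It differed by 0.47 ± 0.14 on the log2 scale (limma, adjusted p = 0.173), and by 0.47 without control replicate 5 (adjusted p = 0.164).

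On 1371232_a_at the signal was 41.9, 43.5, 37.3, 36.5 and 56.5 in dehydrated pools, against 25, 41.2, 40, 19 and 32.4 in control pools. The groups overlapped, with control replicates 2 and 3 inside the dehydrated range. This gave a log2 difference of 0.44 ± 0.19 (limma, adjusted p = 0.346), or 0.46 without control replicate 5. On the dimmer 1388265_x_at, a probe set type in which some probes can match other sequences, the difference was 0.55 (95% interval 0.05 to 1.05, adjusted p = 0.438 by limma without the filter).

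The brightest Vcan probe set, 1388142_at, pointed the other way. Its signal was 81.4, 65.7, 68.5, 62.3 and 63 in dehydrated pools, against 72, 68.6, 76.5, 72.7 and 80 in control pools. Dehydrated replicate 1 was the highest of the 10 and the other dehydrated pools the lowest 4, so the groups overlapped through 1 pool. It differed by -0.12 ± 0.10 on the log2 scale (limma, adjusted p = 0.670), or -0.09 without control replicate 5. The fifth probe set, 1371233_at, had signals of at most 10.4 and differed by 0.01.

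The disagreement was measured within each pool, as the log2 ratio of 2 probe sets of the same gene, in which a factor common to the array cancels but for the pseudocount. The ratio of 1388142_at to 1388054_a_at was 0.44 ± 0.10 in dehydrated and 1.03 ± 0.22 in control pools (SD, n = 5 each). The groups did not overlap, and the exact permutation p was 0.0079, the smallest that 5 pools against 5 can give. Of 16 such pairs over Cd44, Hapln1, Vcan, Acan and Bcan this was the smallest. After adjustment over the 16 it was 0.127, and no pair passed (0 of 16 by the exact test). For 1 pair alone at the smallest exact p, 0.127 is the lowest adjusted value, so this test could not call a single pair. The ratio of 1388142_at to 1388265_x_at had an exact p of 0.0238 (adjusted 0.190) and that to 1371232_a_at an exact p of 0.0556 (adjusted 0.296). Which part of the transcript each probe set covers was not analysed here. Control probe sets at the 3′ end of beta-actin were brighter than those at its 5′ end, by log2 2.84 in dehydrated and 2.70 in control pools (exact permutation p = 0.516, adjusted 0.709). For GAPDH the values were 1.58 and 1.41 (exact permutation p = 0.254, adjusted 0.508). Their part in the Vcan ratios was not tested.

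**Figure D3:**
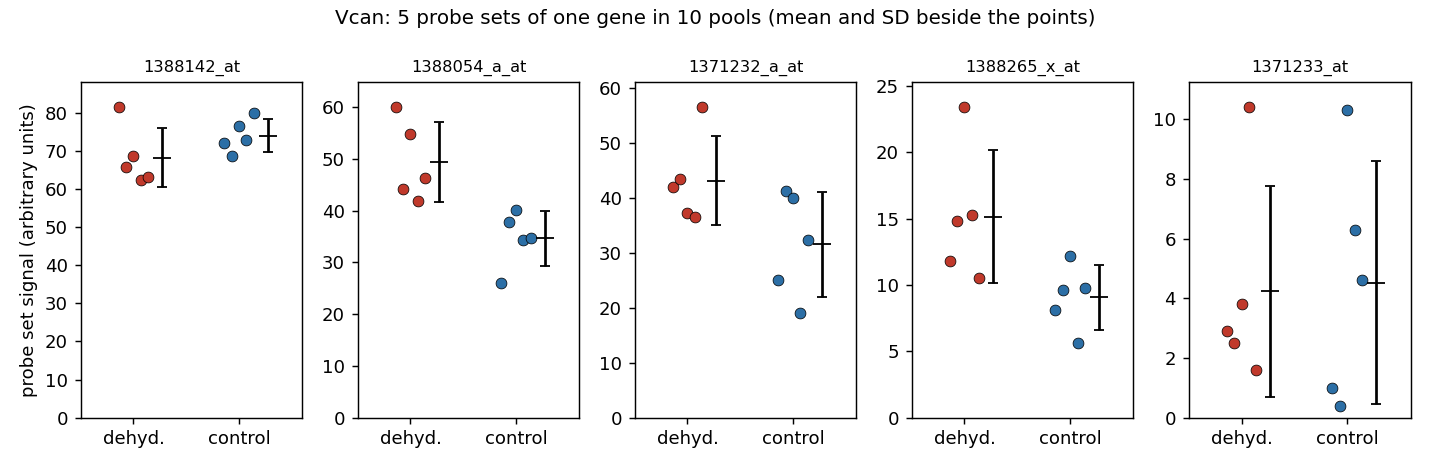
Signal of the 5 Vcan probe sets in each pool, in arbitrary units, with the mean and SD beside the points of dehydrated (red) and control (blue) pools (n = 5 each). On 1388054_a_at the dehydrated pools, from 41.8 to 60, all lie above the control pools, from 26.1 to 40.1, while on 1388142_at 4 of the 5 dehydrated pools lie below all control pools.

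Aggrecan, encoded by Acan, is the lectican that marks perineuronal nets most strictly. On 1387355_at the signal was 35.2, 28.1, 37.9, 17.9 and 25.7 in dehydrated pools, against 26.3, 21.5, 28.1, 27.4 and 21 in control pools. The dehydrated pools held both the highest and the lowest value, and the log2 difference of 0.16 ± 0.19 did not pass (limma, adjusted p = 0.756). Without control replicate 5 it was 0.11. The dimmer 1368836_a_at differed by 0.68, with a 95% interval from -0.17 to 1.54 and signals from 1.0 to 22.5.

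Brevican, encoded by Bcan, is a brain lectican made by astrocytes and oligodendrocyte precursors. On its bright probe set 1387934_at the signal was 421.1, 422.3, 384.1, 383.8 and 465.1 in dehydrated pools, against 448.7, 446, 471, 429 and 553.5 in control pools. The groups overlapped through dehydrated replicate 5, and the other dehydrated pools lay below all control pools. The means were 415 ± 33.6 in dehydrated and 470 ± 49.2 in control pools (SD, n = 5 each), and the log2 difference was -0.17 ± 0.08 (limma, adjusted p = 0.367), or -0.11 without control replicate 5 (adjusted p = 0.457). The second probe set, 1369831_at, differed by -0.12 ± 0.16 (limma, adjusted p = 0.793), and by -0.06 without control replicate 5 (adjusted p = 0.894).

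The summed signal of 7 oligodendrocyte precursor markers was 990 to 1142 in dehydrated and 1061 to 1356 in control pools (exact permutation p = 0.103, adjusted 0.248 over 12 measures). That of 12 astrocyte markers was 19710 to 22423 in dehydrated and 18822 to 21743 in control pools (exact permutation p = 0.532, adjusted 0.709). Of these 12, 5 were positive, 7 were negative and none passed (limma). The astrocyte filament gene Gfap had a log2 difference of -0.38 (limma, adjusted p = 0.0553). Aqp4 differed by -0.16 (adjusted p = 0.249), and by 0.18 and -0.22 on its other probe sets. Ndrg2 differed by 0.32 (adjusted p = 0.161), and by -0.13 on a probe set below the filter. None of these markers was at 0 on any array, and their part in the Bcan values was not tested. Ncan, the neurocan gene of the same family, had signals of at most 20 in any pool, and its log2 difference was -0.19 with a 95% interval from -1.12 to 0.73 (limma without the filter).

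Most genes of the wider hyaluronan matrix did not pass the test either. They were taken in 10 lists chosen by function, which also cover chondroitin sulfate, collagens and basement membrane, and responses to inflammatory cytokines. The lists held 103 tested genes, Tnfaip6 left out, and each gene was read from its brightest probe set. Genes whose brightest probe set had a mean signal below the filter were not tested. Of these 1 rose, 1 fell and 101 did not pass (limma), which is 1.94% called against 0.580% over all probe sets, 0.397% higher and 0.183% lower. Before adjustment, 20 of the 103 had a p under 0.05, or 19.4%, against 12.7% over all. The median log2 difference was 0.01, and 54 were positive.

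Of 8 tested genes that make hyaluronan or its sugar precursors, none passed (limma, 0, with 1 at an unadjusted p under 0.05), and the median was -0.01. Ugp2, the enzyme that makes UDP-glucose, had 412.2, 541.9, 511.1, 538.1 and 499 in dehydrated pools, against 595.5, 584.6, 581.6, 564.6 and 563.8 in control pools. All dehydrated pools were lower, by a log2 difference of -0.21 ± 0.07 that did not pass (limma, adjusted p = 0.221). Ugdh, which turns UDP-glucose into the UDP-glucuronate used by the synthases, differed by 0.08 (adjusted p = 0.717).

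Of 6 tested genes of hyaluronan breakdown none passed (limma, 0, with 1 at an unadjusted p under 0.05). Cemip, which binds hyaluronan and promotes its cleavage, had 46.0 ± 7.68 in dehydrated and 35.1 ± 6.86 in control pools (SD, n = 5 each), which is 0.36 ± 0.15 on the log2 scale (limma, adjusted p = 0.339). Cemip2, a membrane hyaluronidase, differed by -0.32 (adjusted p = 0.426), and the hyaluronidase gene Hyal3 by -0.17 (adjusted p = 0.494). A second, dimmer Hyal3 probe set differed by 0.14 (adjusted p = 0.756). The median of the list was -0.07.

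Of 4 tested hyaluronan receptors and binding proteins besides Tnfaip6, namely Lyve1, Habp4, Hapln2 and Hapln4, none passed (limma, 0, and 0 at an unadjusted p under 0.05). Hapln4, a brain link protein, had 142 ± 20.7 in dehydrated and 161 ± 17.7 in control pools (log2 -0.18, adjusted p = 0.487). Its other probe sets, with mean signals below the filter, differed by -0.43 and 0.82. The lymphatic receptor gene Lyve1 differed by 0.17 (adjusted p = 0.780), and by -0.37 on a probe set below the filter.

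The genes whose products Tnfaip6 acts on or binds gave 0 calls among 9 tested (limma), with 3 at an unadjusted p under 0.05 and a median of 0.12. Itih3, a heavy chain of inter-alpha-inhibitor, had 3930 ± 376 in dehydrated and 3611 ± 334 in control pools (SD, n = 5 each), which is 0.12 ± 0.07 on the log2 scale (limma, adjusted p = 0.492). Itih2, another heavy chain, and Ambp, the precursor of the light chain bikunin, had mean signals below the filter, 1.52 and 4.72 in dehydrated and 1.42 and 6.06 in control pools.

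Bmp4, a growth factor, had 30.7, 29.1, 25, 25.7 and 29.2 in dehydrated pools, against 43.7, 39.7, 45.1, 40.8 and 51.1 in control pools. The groups were well apart, and the log2 difference was -0.59 ± 0.13. The adjusted p was 0.0502 in limma, with values from 0.0188 to 0.111 over the other settings, 7 of which passed, and from 0.0615 to 0.130 with each array left out. Tnfrsf11b, osteoprotegerin, had 53.7 ± 7.34 in dehydrated and 40.7 ± 4.39 in control pools without overlap (log2 0.37, limma adjusted p = 0.233). Cxcl12, a chemokine gene, differed by -0.37 on its brightest probe set and by 0.38 on another, with no call in either (adjusted p = 0.261 and 0.103).

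Of 13 tested genes of perineuronal nets and lectican partners none passed (limma, 0, with 2 at an unadjusted p under 0.05), 9 were negative and the median was -0.17. These signs rest on the brightest probe set of each gene. Vcan was counted as negative although 4 of its 5 probe sets were positive, and Hapln4 although a dim one was at 0.82. Hapln2 was counted so although its other probe sets, below the filter, were at 0.51 and 0.26, and Fbln1 although its other one was at 0.28. Bcan and Tnr, the gene of the lectican cross-linker tenascin-R, had the smallest p. The Tnr signal was 57.7, 57.7, 54.5, 74.8 and 93.2 in dehydrated pools, against 79.4, 86, 94.4, 80.7 and 72.1 in control pools. Dehydrated replicate 5 was among the highest pools, and the log2 difference of -0.30 ± 0.14 did not pass (limma, adjusted p = 0.382). Summed oligodendrocyte markers (11 genes, none at 0 on any array) were 7309 to 7636 in dehydrated and 7887 to 9555 in control pools, without overlap (exact permutation p = 0.0079, adjusted 0.0635). All 11 were negative, and 1 fell, the cytoskeletal gene Ermn, by 0.63 on the log2 scale (limma, adjusted p = 0.0255, lost without any of 3 arrays and under 2 other settings). Oligodendrocytes make tenascin-R, and the part of these markers in the Tnr and Bcan values was not tested.

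Of 14 tested genes of chondroitin sulfate synthesis, which makes the side chains of the lecticans, 1 rose and 13 did not pass. Chpf2, a chondroitin polymerizing factor, had 151.8, 158.5, 178.2, 204.4 and 152.5 in dehydrated pools, against 118.7, 127.6, 125.9, 119.7 and 124.9 in control pools. The groups did not overlap, and the log2 difference was 0.43 ± 0.09 (limma, adjusted p = 0.0374). The call was that of 1 of 3 probe sets, the others at -0.03 and 0.05 with mean signals below the filter. It was lost with any of 6 arrays left out, up to 0.118 without dehydrated replicate 3, and under 3 of 9 other settings.

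Of 15 tested proteases of the matrix and their inhibitors, 1 fell and 14 did not pass. Mmp15, a membrane-type metalloproteinase not known chiefly for cleaving lecticans, had 101.1, 106.9, 102.3, 113.5 and 111.2 in dehydrated pools, against 135.9, 135.9, 156.3, 142.5 and 147.4 in control pools. All dehydrated pools were lower, and the log2 difference was -0.41 ± 0.08 (limma, adjusted p = 0.0270). With any of 7 arrays left out the call was lost, up to 0.0808 without dehydrated replicate 3. Serpine2, a serine protease inhibitor, differed by -0.23 (adjusted p = 0.214). The metalloproteinase inhibitor genes Timp2 and Timp3 differed by 0.16 (adjusted p = 0.328) and -0.17 (adjusted p = 0.332). Dimmer Timp3 probe sets differed by 0.54 (below the filter), 0.12 and -0.02.

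**Figure D4:**
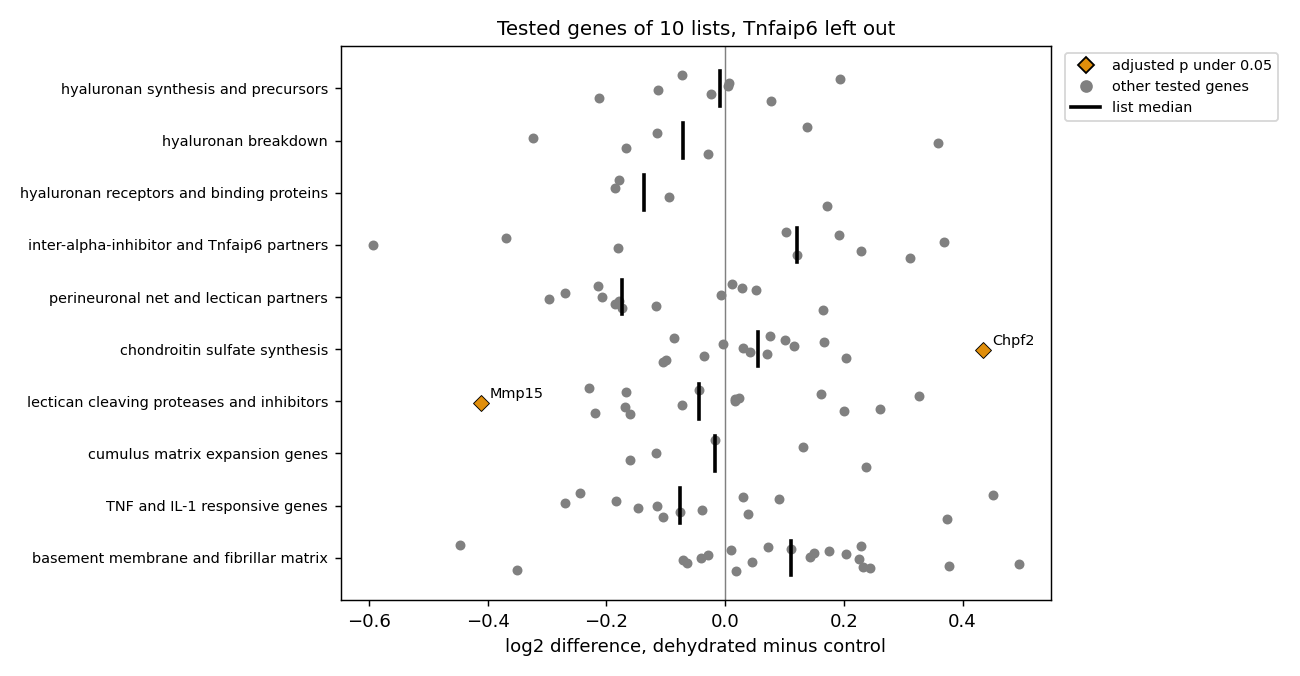
Log2 difference, dehydrated minus control, of the tested genes of 10 lists with Tnfaip6 left out. Each point is a gene, diamonds mark an adjusted p under 0.05 and vertical bars the list medians. Chpf2 at 0.43 and Mmp15 at -0.41 are the diamonds, and the medians lie between -0.17 and 0.12.

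Tnfaip6 is named for its induction by tumour necrosis factor, and other genes that respond to this cytokine or to interleukin-1 were compared in the same pools. Of 28 such genes on the array 13 were tested, and the rest had mean signals below the filter, so their response was not measured here. Of the 13, none passed (limma, 0, with 3 at an unadjusted p under 0.05), 8 were negative and the median was -0.08. Nfkbia, the inhibitor induced by NF-kB itself, had 98.5, 82.8, 107.5, 96.5 and 81.3 in dehydrated pools, against 52, 51.3, 77.5, 77.1 and 110.2 in control pools. Control replicate 5 was the highest of the 10 and the other controls the lowest 4. It differed by 0.37 ± 0.17 on the log2 scale (limma, adjusted p = 0.371), and by 0.53 without control replicate 5 (adjusted p = 0.0944). The transcription factor gene Cebpb had 73.4 ± 19.3 in dehydrated and 52 ± 10.3 in control pools (SD, n = 5 each), which is 0.45 ± 0.17 on the log2 scale (limma, adjusted p = 0.288).

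Other genes of the tumour necrosis factor induced series gave no call. Tnfaip8 had 57.8 ± 8.85 in dehydrated and 70.4 ± 10.1 in control pools (log2 -0.27, limma adjusted p = 0.389), Tnfaip1 differed by -0.15 (adjusted p = 0.473) and Tnfaip3, which restrains NF-kB, by -0.11 (adjusted p = 0.764). The cytokine genes themselves lay below the filter, Tnf at 7.56 in dehydrated and 4.2 in control pools and Il1b at 6.22 and 7.26. The summed signal of 12 markers of microglia and macrophages, a main source of both cytokines in brain, was 965 to 1045 in dehydrated and 1045 to 1161 in control pools (exact permutation p = 0.0159, adjusted 0.0635). With the median of the markers' log2 signals the difference was -0.21 (exact permutation p = 0.0794). Aif1, a marker of these cells, differed by -0.42 (limma, adjusted p = 0.0880), and by -0.11 on a second, dimmer probe set (adjusted p = 0.894). The part of these cells in the values above was not tested.

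The genes whose levels followed those of Tnfaip6 most closely were ranked by Pearson's r of log2(signal + 3.72) with 1371194_at over the 10 pools, among 13587 tested probe sets with 1 symbol. They were Opn3 (r = 0.98), an opsin gene, Caprin2 (0.97), an RNA-binding protein, Rasd1 (0.97), a small GTPase, Giot1 (0.96), a zinc finger protein, Mmd (0.96) and Fscn1 (0.96), an actin-bundling protein. This r is set mainly by the difference between the groups, which chose Tnfaip6, and all genes share the 10 arrays and their scaling. The 99th percentile over the probe sets was 0.83. The choice of genes depends on the measure and on 1 array: by Spearman's rho 0 of these 6 were among the top 6, and without control replicate 5, 3 were.

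The sizes of the differences were unlike. Rasd1 had 253.7, 224, 271.6, 257.4 and 221.7 in dehydrated pools, against 129, 136.9, 133.7, 144.2 and 137.9 in control pools, a log2 difference of 0.83 ± 0.08. Mmd had 724.9, 673.6, 768.7, 731.6 and 691.5 in dehydrated pools, against 496.8, 507.3, 527.5, 543.7 and 597.1 in control pools, a difference of 0.42 ± 0.06. Both were apart without overlap. Opn3, Caprin2 and Giot1 differed by 1.69, 1.84 and 1.68. Fscn1 differed by 0.63 ± 0.14 on the probe set named here and by -0.25 and -0.08 on its other 2. In promoter windows, the TGACGTCA element stood in those of Giot1 and Fscn1, 2 of these 6 genes, and the TGAGTCA motif of the Tnfaip6 window in 0 of the 6.

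When the group means were removed, so that only the spread between pools of a group was compared, r with Tnfaip6 was 0.42 for Opn3, 0.16 for Caprin2, 0.20 for Rasd1, 0.24 for Giot1, 0.62 for Mmd and 0.41 for Fscn1. The highest values on this measure were those of Mustn1 (0.93), Txn2 (0.93), Ube2s (0.93) and Rprml (0.92), where the 99th percentile was 0.78 and the median 0.02. Among the matrix genes it ran from -0.80 for Cd44 1387952_a_at and -0.69 for Ncan, both dim, to 0.59 for Vcan 1388265_x_at. These are descriptions over 10 pools with no test.

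**Figure D5:**
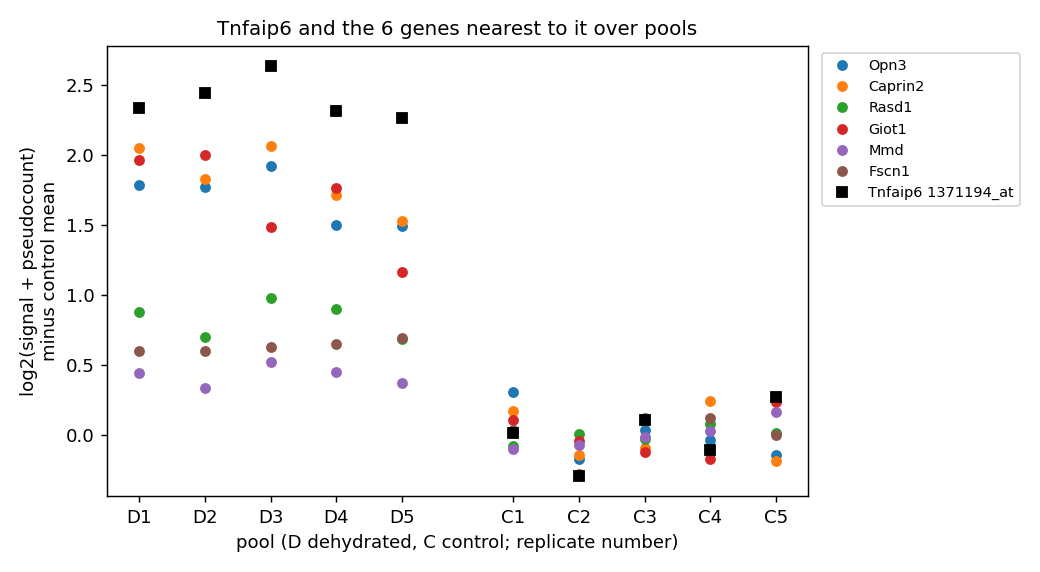
Log2(signal + 3.72) minus the mean of the control pools, for Tnfaip6 (black squares) and the 6 genes with the highest r to it, in each dehydrated (D) and control (C) pool. Tnfaip6 lies highest in the dehydrated pools, on average 2.40 above control, followed by Caprin2 at 1.84, Opn3 at 1.69 and Giot1 at 1.68.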

How the data were processed

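The deposited values were linear probe set intensities of Affymetrix Rat Genome 230 2.0 arrays that the authors made with GCOS 1.2, a version taken from the submitters' processing notes. How signals were summarised, corrected for background and called detected is not given in the sources used here. A mean after trimming 2% at each end was 100.03 on every array, so the arrays had been scaled to a common level. Such signals hold background at the low end, and the number of arrays limits the precision.

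From these, log2(signal + 3.72) was computed without further scaling. The 57 control probe sets, which held both missing values, were left out, and 18629 of 31042 probe sets with a mean signal at or above the 40th percentile (24.1) were tested. Dehydrated and control pools were compared with lmFit and eBayes (trend) of limma 3.58.1 (R 4.3.3). Tests were two-sided, and p-values were adjusted by Benjamini and Hochberg's method over all 18629, with a threshold of 0.05. Adjusted p in the text are from this fit unless another is named. Probe sets under the filter were read from a fit without it. Ratios of probe sets, marker sums and array measures were tested with an exact permutation test (two-sided, every way to divide 10 pools into 5 and 5), adjusted over 16 pairs and 12 measures. The fit was tested on simulated arrays of 18629 probe sets for this comparison, where 32.8%, 80.1% and 98.5% of true log2 differences of 0.4, 0.8 and 1.6 were recovered.

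Of the probe sets, 20826 had 1 symbol in the platform annotation, 436 several and 9780 were not listed there, and 20758 symbols were looked up by Entrez identifier in RefSeq's GRCr8 gene table. Promoter windows came from RefSeq. Replicates were numbered in accession order and pair nothing. The numbers in the sample titles form a separate run for each group, except for that of control replicate 5. What they stand for is not given in the sources used here, and a batch, if they mark one, cannot be told apart from the group. The members and gene lists were chosen with earlier results of these data known. The named genes were all members, the called genes and up to 4 others of each list with the smallest p, up to 3 per marker list (printed where that list stands beside a result), and the genes nearest to Tnfaip6 (6 by r, 4 by r of deviations). Avp, Oxt, Crh, Trh, Sim1, Ugdh, Itih2, Ambp, Tnfaip3, Tnf, Il1b and Ptgs2 fall outside this rule and were named for their roles after their values were seen. Otp, Pou3f2 and Fbln1 also fall outside it and were named for their values. Alternatives were median centring, quantile normalization, pseudocounts of 14.9 and 64, no filter, a filter at the 60th percentile, no variance trend, a robust fit, array weights and each array left out. Pseudocounts and quantile normalization for the ratios of probe sets were added after seeing the data.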

Additional observations from a re-analysis of the deposited data

Results flagged for a closer look

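Of 36 groups of 5 pools checked, 3 held a pool whose gap to its nearest neighbour took up more of the group's range than Dixon's critical value, where chance flags about 1 group in 20. Cd44 1368921_a_at was flagged in both groups, at a signal of 6.6 in dehydrated replicate 1 and 9.6 in control replicate 1, each the lowest of its group. Hapln1 1386310_at was flagged at 0.3 in control replicate 4, on a probe set with no signal above 1.1.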

How the results depend on the processing

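The difference of Tnfaip6 1371194_at stayed positive under all 19 alternatives. It was 1.99 at 4 times the pseudocount and 1.18 at a pseudocount of 64, and from 2.33 to 2.47 with each array left out. Tnfaip6 1371193_at was at 0.62 and 0.19 with those pseudocounts. The count of changed probe sets, 108, was 71 with median centring, 64 without a filter, 45 without the variance trend, 201 with array weights, and 46 (without dehydrated replicate 3) to 148 (without control replicate 5) with each array left out. Of the 103 list genes, 2 were called, 1 without a filter, 3 with quantile normalization, either larger pseudocount, the robust fit or array weights, and 0 to 2 with each array left out. The tested Vcan, Acan and Bcan probe sets kept direction and gained no call in any alternative. Averaging probe sets turned Vcan to 0.27 and gave Tnfaip6 1.91. No pair of probe sets passed in the 3 alternatives tried, where the adjusted exact test could not call a single pair either. Of the 6 genes most like Tnfaip6, 0 were among the top 6 by Spearman's rho, and 3 without control replicate 5. The summed markers of astrocytes, ependyma and neurons in general (pan-neuronal) differed by 0.04, 0.06 and 0.01, and with the median of marker log2 signals by -0.13, -0.18 and -0.14, while those of magnocellular and paraventricular neurons stayed positive at 0.46. The Ube2s difference ran from -0.0488 to 0.0699 with each array left out. The causes were not tested. Probe sets with signals near 0 have little precision, which limits Has2, Cd44, Hapln1 and Ncan.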

Other observations

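Fibrillar and basement membrane matrix gave no call among 21 tested genes (limma, 0, with 5 at an unadjusted p under 0.05), of which 15 were positive, and the median log2 difference was 0.11. Col5a1, a fibrillar collagen gene, had 66, 54, 67.4, 67.3 and 58.4 in dehydrated pools, against 55.5, 40.5, 40.5, 44.7 and 36.8 in control pools. Only control replicate 1 entered the dehydrated range. The log2 difference was 0.49 ± 0.13 (limma, adjusted p = 0.0928), and -0.16 on the other Col5a1 probe set. Nid1, a basement membrane linker, differed by 0.20 (adjusted p = 0.328), and by -0.17 on a second probe set (adjusted p = 0.726). Lum, a collagen-binding proteoglycan gene of fibroblasts, had 20.6 ± 2.66 in dehydrated and 29.5 ± 4.5 in control pools without overlap (log2 -0.45, limma adjusted p = 0.248), and the fibrillar collagen gene Col1a2 differed by -0.35 (adjusted p = 0.389).

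Genes that act with Tnfaip6 in the expanding matrix around the oocyte gave no call among 5 tested besides Tnfaip6 (limma, 0, and 0 at an unadjusted p under 0.05). Btc, an epidermal growth factor family ligand, differed by 0.24 (adjusted p = 0.556) and the protease gene Adamts1 by -0.16 (adjusted p = 0.783). Ptgs2, the inducible prostaglandin synthase, lay below the filter at 14.6 in dehydrated and 16.7 in control pools.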
